A study of Homo sapiens with 12 samples.

Results

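The comparison of ZSTK474 at 0.3 µM with no drug rested on 8 of the 12 arrays of the series, the 4 labelled 0.3 µM and the 4 labelled 0 µM, which were paired by cell line. The arrays were chosen by their dose labels alone. The question was which genes respond most at the lower of both doses used. RNA was taken after 24 h from 4 lines of synovial sarcoma, a soft tissue tumour whose driver is a fusion gene joining SS18 to one of the SSX genes. According to the study's methods the fusion is SS18-SSX1 in Aska-SS and in Yamato-SS, and SS18-SSX2 in SYO-1 and in Fuji. Each line is a single established culture grown in RPMI-1640 with fetal bovine serum, and each was measured once per dose on an Affymetrix Human Genome U133 Plus 2.0 array. The 4 lines therefore stood as the replicates (n = 4 per dose), and the spread between repeated cultures of a line was not measured. The other 4 arrays, at 3 µM, entered the fit to share its estimate of the spread and are quoted beside the results. They also took part in the normalization, the floor, the filter for dim signals and the choice of probe sets.

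ZSTK474 blocks the class I isoforms of phosphatidylinositol 3-kinase (PI3K), the lipid kinases through which growth factor receptors activate Akt. Active Akt keeps the FOXO transcription factors out of the nucleus and, through mTOR complex 1, drives protein, lipid and nucleotide synthesis. When the pathway is blocked, FOXO factors enter the nucleus and switch on genes of cell cycle arrest, catabolism and cell death, while genes of growth and cell division lose their drive.

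Values are signal intensities after quantile normalization, and changes are log2 differences between 0.3 and 0 µM averaged over the 4 lines, with the standard error (SE) of the fit. Signals are listed with Aska-SS first, then SYO-1, then Yamato-SS and last Fuji. A signal of 12.1 is the floor to which dimmer signals were raised. Before normalization the median signal was 60.1 to 70.6 without drug and 63.6 to 77.7 at 0.3 µM. All 17 synovial sarcoma marker genes with a usable probe set lay above the filter for dim signals, among them TLE1, the diagnostic transcriptional corepressor, at 7260 to 24100 on the 8 arrays. Of the leukocyte markers 1 of 9 lay above it, of the endothelial markers 2 of 10 and of the epithelial markers 4 of 13, and PTPRC, the leukocyte surface phosphatase, was at 12.1 to 36.1.

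Of 12133 genes tested, 961 changed at 0.3 µM (7.92% of the genes, adjusted p under 0.05 in limma with Benjamini-Hochberg adjustment). Of these, 554 rose (4.57%) and 407 fell (3.35%). The changes were small, with a median log2 change of 0.52 among the genes that rose and -0.48 among those that fell, against -0.00026 over all genes. Changes of 2-fold or more were reached by 28 of the genes that rose and by 9 of those that fell. Of the called genes 551 of 554 were higher in every line and 403 of 407 lower, which a fit paired on these lines favours in the genes it calls. Over all genes tested, called or not, 19.9% were higher in 4 of 4 lines and 19.3% were lower in 4 of 4. The number of calls depended on the lines in the fit. Without Aska-SS 1 gene was called, CLIP3, with 2298 genes at an unadjusted p under 0.05, and without SYO-1, Yamato-SS or Fuji 317, 352 and 81 were called.

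**Figure D1:**
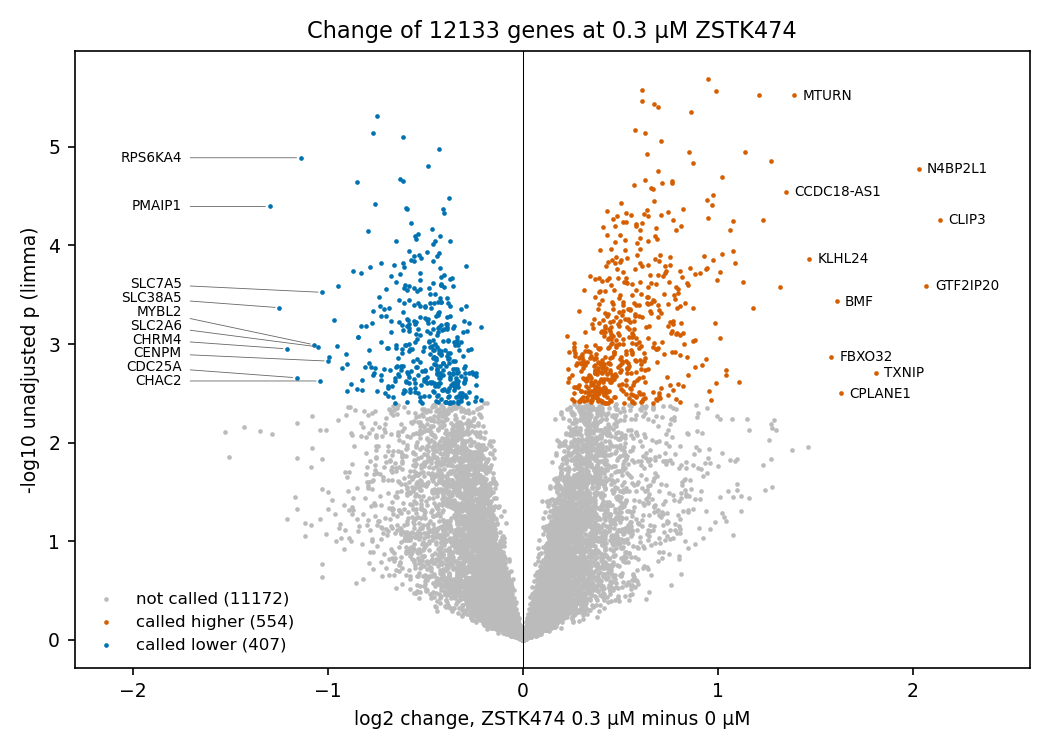
Change of 12133 genes at 0.3 µM ZSTK474. The horizontal axis is the log2 change from 0 µM averaged over 4 cell lines and the vertical axis is -log10 of the unadjusted limma p; each point is a gene, 554 called higher are orange, 407 called lower are blue, and the 10 largest rises and 10 largest falls are labelled. The largest rise, CLIP3, lies at 2.14 and the largest fall, PMAIP1, at -1.30.

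The largest rises were in genes of varied function. The filter for dim signals used all 12 arrays, so a gene dim without drug could pass it through its treated arrays. This limits the adjusted p of N4BP2L1, GTF2IP20, FBXO32, CPLANE1 and BMF. CLIP3, a linker protein with a CAP-Gly domain that acts at the trans-Golgi network, gave signals of 495, 67.4, 37.9 and 159 at 0 µM and 932, 474, 192 and 911 at 0.3 µM. It was higher in each line with drug, although the dose groups overlapped through the high untreated level of Aska-SS, and the change was 2.14 ± 0.35 (SE, limma adjusted p = 0.0104). N4BP2L1, a little-studied gene, gave 46.7, 89.5, 12.1 and 93.7 at 0 µM and 257, 168, 45.1 and 672 at 0.3 µM, a change of 2.03 ± 0.29 (adjusted p = 0.00849). The untreated signal of Yamato-SS was at the floor, so the change in that line has only a lower bound. Its other probe sets moved by 0.77 and 0.89. GTF2IP20, a pseudogene of a general transcription factor whose probe set can bind related transcripts and is therefore uncertain, gave 38.8, 160, 12.1 and 34.6 at 0 µM and 215, 177, 120 and 178 at 0.3 µM. Its change of 2.07 ± 0.40 (adjusted p = 0.0158) rested on Aska-SS, Yamato-SS and Fuji, while SYO-1 moved by 0.15.

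TXNIP, an alpha-arrestin that binds thioredoxin and limits glucose uptake, gave signals of 1922, 366, 58.4 and 286 at 0 µM and 4470, 1069, 233 and 1591 at 0.3 µM. Every line was higher with drug, by 1.22 to 2.47, on top of untreated levels that differed widely between lines, and the mean change was 1.81 ± 0.46 (adjusted p = 0.0357). FBXO32, the muscle atrophy ubiquitin ligase atrogin, gave 100, 39, 12.1 and 140 at 0 µM and 167, 59.5, 109 and 496 at 0.3 µM, a change of 1.58 ± 0.38 (adjusted p = 0.0304) that was again measured from the floor in Yamato-SS. CPLANE1, a gene of cilium formation, gave 95, 74.1, 12.2 and 30.9 at 0 µM and 141, 90.5, 95.7 and 201 at 0.3 µM, with small differences in Aska-SS and SYO-1 and large ones in the other two lines. KLHL24, an adaptor of a cullin ubiquitin ligase, gave 712, 582, 184 and 614 at 0 µM and 1721, 827, 733 and 2631 at 0.3 µM, so that the lowest treated signal was above the highest untreated one (1.47 ± 0.27, adjusted p = 0.014). The dose groups also did not overlap for CCDC18-AS1, a long non-coding RNA, at 171, 144, 274 and 152 at 0 µM and 348, 350, 524 and 679 at 0.3 µM (1.35 ± 0.21, adjusted p = 0.00931). MTURN, a regulator of neural differentiation, had the smallest SE of the 10 largest rises, 0.17, at a change of 1.39 (adjusted p = 0.00585) and signals of 466, 263, 89.3 and 237 at 0 µM and 1229, 519, 260 and 743 at 0.3 µM. Another MTURN probe set moved by 0.29.

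The largest falls were in genes of varied function as well. PMAIP1, which encodes the pro-apoptotic protein NOXA, fell by 1.30 ± 0.21 on the log2 scale (adjusted p = 0.0104) with signals of 361, 1798, 633 and 865 at 0 µM and 114, 1320, 260 and 247 at 0.3 µM. SYO-1 kept the highest signal at both doses, so the groups overlapped. SLC7A5, the transporter LAT that imports leucine and other large amino acids, gave 2123, 1886, 2069 and 2200 at 0 µM and 1250, 780, 1054 and 1009 at 0.3 µM. No treated signal reached the lowest untreated one, and the change was -1.03 ± 0.21 (adjusted p = 0.0167). SLC3A2, its partner subunit, fell by 0.58 ± 0.14 (adjusted p = 0.0288). SLC38A5, a transporter of glutamine and related amino acids, fell by 1.25 ± 0.26 (adjusted p = 0.019) from 639, 46.9, 1542 and 57 at 0 µM and 347, 12.1, 851 and 23.1 at 0.3 µM, with SYO-1 at the floor under drug. SLC2A6, a member of the glucose transporter family, fell by 1.05 ± 0.25 (adjusted p = 0.0278).

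RPS6KA4, a nuclear kinase activated by the ERK and p38 pathways, had the smallest SE of the 10 largest falls. Its signals were 675, 737, 689 and 802 at 0 µM and 319, 278, 396 and 328 at 0.3 µM, with no overlap between the groups, and its change was -1.14 ± 0.16 (adjusted p = 0.00785). CDC25A, the phosphatase that activates CDK2 for entry into S phase, gave 521, 391, 1209 and 519 at 0 µM and 197, 248, 611 and 173 at 0.3 µM (-1.16 ± 0.30, adjusted p = 0.0376). MYBL2, a transcription factor of the G1 to S transition, gave 1003, 1702, 2805 and 728 at 0 µM and 381, 1005, 1857 and 249 at 0.3 µM (-1.07 ± 0.25, adjusted p = 0.0271). Both genes fell in each line, and for both the untreated levels of the lines differed enough for the groups to overlap. CHRM4, the muscarinic acetylcholine receptor M4, gave low signals of 91.2, 116, 95.1 and 144 at 0 µM and 48.1, 66.5, 23.5 and 67 at 0.3 µM, which did not overlap (-1.21 ± 0.28, adjusted p = 0.0281). CHAC2, a glutathione-degrading enzyme, and CENPM, a centromere protein, completed the list with -1.04 ± 0.27 and -0.999 ± 0.24 (adjusted p = 0.0386 and 0.032). Both fell most in Fuji, where CHAC2 went from 1540 to 358 and CENPM from 1220 to 272.

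**Figure D2:**
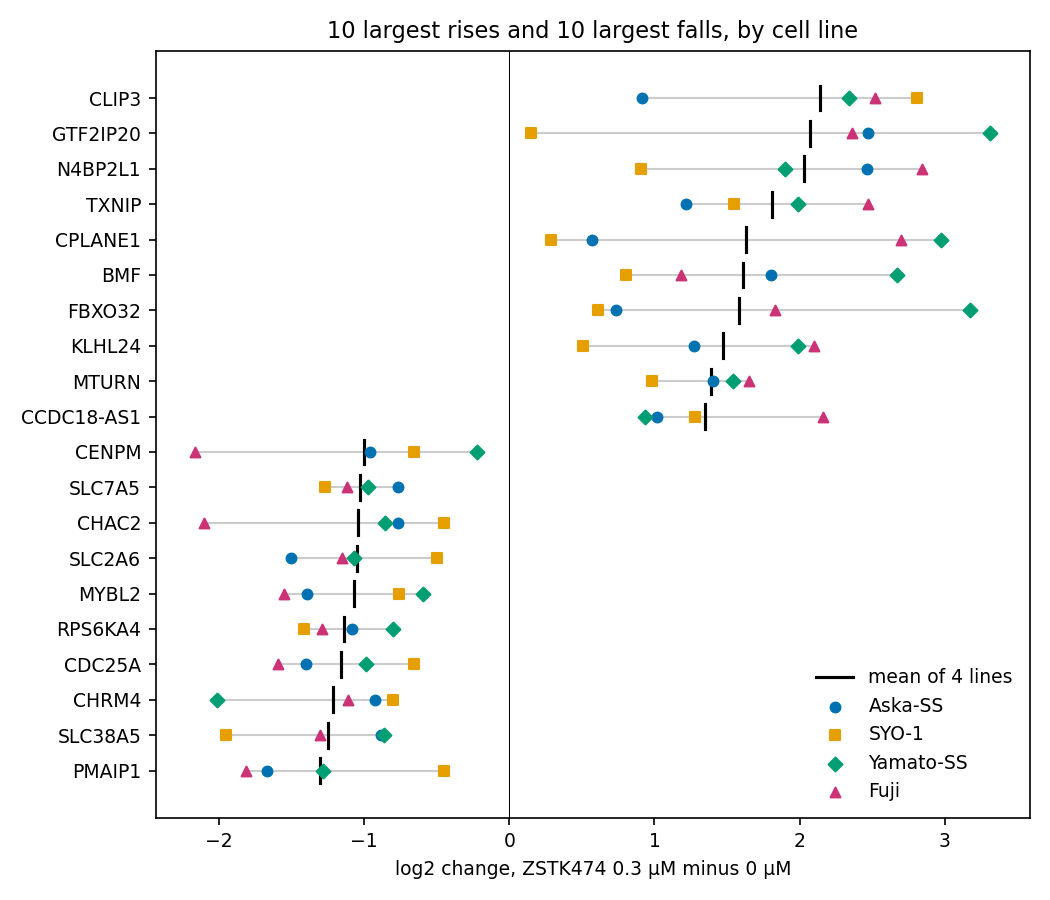
The 10 largest rises and 10 largest falls at 0.3 µM, one row per gene. The horizontal axis is the log2 change from 0 to 0.3 µM; coloured symbols are the 4 cell lines and the black tick is their mean. All 4 lines of each gene lie on one side of 0 because the genes were chosen by that rule. SYO-1 gave the smallest rise for GTF2IP20, N4BP2L1, CPLANE1, BMF, FBXO32, KLHL24 and MTURN.

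The genes with the largest changes were mostly not those with the smallest p. Calls that held in the fit of all lines and in each fit that left out SYO-1, Yamato-SS or Fuji numbered 63, and the 10 of them with the smallest adjusted p (all 0.00585) included only MTURN from the lists above. None of the 63 was called without Aska-SS, where these 10 had an adjusted p of 0.0635 to 0.0774 in limma. No gene was called in every fit that left out a line. EIF4B, an initiation factor that helps the helicase unwind mRNA leaders, gave 7217, 8754, 5660 and 7008 at 0 µM and 11490, 11620, 9126 and 11260 at 0.3 µM and VPS51, a subunit of the tethering complexes of endosomes and Golgi, gave 2503, 3264, 2252 and 2308 at 0 µM and 4192, 4684, 3717 and 3994 at 0.3 µM. In both the groups did not overlap, at changes of only 0.61 ± 0.07 and 0.69 ± 0.09. PDGFRA, the receptor for platelet-derived growth factor, rose by 0.95 ± 0.11 with 4535, 8483, 15020 and 6635 at 0 µM and 9542, 11710, 30980 and 15450 at 0.3 µM, but its other probe set moved by 0.0013. JMY, an actin nucleator and cofactor in p53 responses, rose by 0.99 ± 0.12 with 1470, 642, 332 and 1026 at 0 µM and 2858, 985, 703 and 2516 at 0.3 µM, while its other probe set moved by 0.14. H2AC6, a histone H2A gene, rose by 1.21 ± 0.15 with 763, 478, 498 and 991 at 0 µM and 1743, 918, 1257 and 2553 at 0.3 µM. MRC2, a collagen receptor, rose by 0.67 ± 0.08, although its other probe set went the other way at -0.51. ANKRD36B (0.86 ± 0.11) and NOTCH2NLA (0.61 ± 0.07) belong to families of near-identical copies, so the copy that was measured is uncertain. The one fall among these 10 was MICA, a ligand of the NKG2D receptor of natural killer cells, at 1440, 1257, 355 and 1864 at 0 µM and 807, 746, 233 and 1077 at 0.3 µM (-0.75 ± 0.09).

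The promoters of TXNIP, CTSF, KIZ, OTUD1 and MXI1 are shown because they are the windows of genes that rose, either by 2-fold or more or as listed FOXO targets, in which the FOXO letters TGTTTAC stand wholly before the start. CTSF (cathepsin F, a lysosomal protease), KIZ (a centrosomal protein) and OTUD1 (a deubiquitinase) were picked after their values were seen. They rose by 1.18 ± 0.24, 1.08 ± 0.18 and 1.01 ± 0.19. Other probe sets of KIZ ranged from 0.21 to 1.29. MXI1, a repressor that competes with MYC for MAX, rose 1.36-fold. Each line gives the 250 bases before a start site of RefSeq (GRCh38.p14), 5′ to 3′ on the strand of the gene, and the capitals mark TGTTTAC or its reverse complement GTAAACA.
TXNIP: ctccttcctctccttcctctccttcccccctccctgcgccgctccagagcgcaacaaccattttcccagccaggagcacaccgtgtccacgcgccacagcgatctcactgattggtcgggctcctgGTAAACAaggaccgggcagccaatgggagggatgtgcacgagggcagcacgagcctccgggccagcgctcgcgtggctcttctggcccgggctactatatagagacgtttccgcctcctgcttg
CTSF: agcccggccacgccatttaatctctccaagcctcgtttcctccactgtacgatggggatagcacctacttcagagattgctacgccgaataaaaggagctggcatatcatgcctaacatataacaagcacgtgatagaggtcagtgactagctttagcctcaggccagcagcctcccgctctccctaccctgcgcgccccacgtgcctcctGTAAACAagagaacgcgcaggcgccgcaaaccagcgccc
KIZ: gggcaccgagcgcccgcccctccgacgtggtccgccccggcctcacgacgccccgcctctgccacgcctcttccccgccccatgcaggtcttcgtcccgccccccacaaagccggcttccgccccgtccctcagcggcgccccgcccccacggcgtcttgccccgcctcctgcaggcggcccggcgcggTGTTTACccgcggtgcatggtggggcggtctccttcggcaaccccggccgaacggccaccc
OTUD1: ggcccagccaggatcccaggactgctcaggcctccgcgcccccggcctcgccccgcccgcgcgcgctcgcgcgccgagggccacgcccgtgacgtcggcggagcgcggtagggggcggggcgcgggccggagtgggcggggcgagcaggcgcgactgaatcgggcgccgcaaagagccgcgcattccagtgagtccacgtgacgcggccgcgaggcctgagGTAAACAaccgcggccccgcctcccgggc
MXI1: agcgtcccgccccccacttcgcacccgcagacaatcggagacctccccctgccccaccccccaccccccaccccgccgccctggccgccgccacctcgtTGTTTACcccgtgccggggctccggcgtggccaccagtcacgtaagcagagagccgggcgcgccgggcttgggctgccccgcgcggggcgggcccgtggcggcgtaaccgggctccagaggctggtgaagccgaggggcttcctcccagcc
In the same way, SLC7A5, SLC38A5 and MYBL2 are the genes that fell by 2-fold or more with the E-box CACGTG, the letters bound by MYC and its relatives, wholly before the start, and there the capitals mark the E-box.
SLC7A5: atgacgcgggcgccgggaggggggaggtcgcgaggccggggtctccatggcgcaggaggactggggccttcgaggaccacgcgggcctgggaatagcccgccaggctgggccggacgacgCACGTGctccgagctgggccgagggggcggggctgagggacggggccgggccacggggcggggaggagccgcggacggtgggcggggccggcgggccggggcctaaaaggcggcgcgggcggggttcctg
SLC38A5: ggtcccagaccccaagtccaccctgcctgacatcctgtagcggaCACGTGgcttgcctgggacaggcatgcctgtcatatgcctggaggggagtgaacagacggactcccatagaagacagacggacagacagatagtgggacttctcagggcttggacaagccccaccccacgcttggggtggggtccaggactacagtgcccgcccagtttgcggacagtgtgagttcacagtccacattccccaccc
MYBL2: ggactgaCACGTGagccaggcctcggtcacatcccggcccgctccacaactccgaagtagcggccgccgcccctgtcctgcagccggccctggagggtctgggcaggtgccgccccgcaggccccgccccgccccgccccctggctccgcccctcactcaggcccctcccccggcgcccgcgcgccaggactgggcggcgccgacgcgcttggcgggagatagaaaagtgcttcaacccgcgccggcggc
The windows lie at chr1:145996580-145996829 (TXNIP, minus strand), chr11:66568607-66568856 (CTSF, minus strand), chr20:21125832-21126081 (KIZ, plus strand), chr10:23438825-23439074 (OTUD1, plus strand) and chr10:110209981-110210230 (MXI1, plus strand) for the genes that rose, and at chr16:87869508-87869757 (SLC7A5, minus strand), chrX:48470261-48470510 (SLC38A5, minus strand) and chr20:43666864-43667113 (MYBL2, plus strand) for those that fell. The FOXO letters begin 124 bases before the start in TXNIP, 39 in CTSF, 61 in KIZ, 29 in OTUD1 and 151 in MXI1. The E-box also stands, in lower case, in printed windows of genes that rose. It begins 123 and 51 bases before the start in CTSF and 55 in OTUD1, so the motifs do not divide these windows by direction.

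Across all genes with a promoter window from 250 bases before to 50 after a start, TGTTTAC stood on either strand in a window of 47 of 445 genes that rose (10.6%), 7 of 348 that fell (2.01%) and 292 of 9104 that were not called (3.21%). Genes that rose had slightly more windows, 1.61 per gene against 1.31 for genes that fell and 1.46 for the rest, and counted per window the shares were 7.25%, 1.76% and 2.36%. Of all 35116 windows 3.42% held the letters. Besides those printed, the genes that rose with the letters included JMY, BCL2L11 and HBP1, a repressor of cell cycle genes, and the genes that fell included CCND3 and MCM7. The E-box CACGTG stood in 18.7% of genes that fell, 13.0% of uncalled genes and 11.7% of genes that rose. Counted per window these shares were 14.5%, 9.55% and 7.25%, and 7.26% of all windows held it. The other motifs stood in few genes. The E2F letters TTTCGCGC stood in 8 genes that fell (2.3%), 105 uncalled genes (1.15%) and 4 that rose (0.899%), and in 0.515% of all windows. TGATGCAA, the response element of ATF4, stood in 1 (0.287%), 60 (0.659%) and 6 genes (1.35%) in the same order and in 0.866% of all windows. TCACCCCA, a sterol response element, stood in 3 (0.862%), 149 (1.64%) and 9 genes (2.02%) and in 1.54% of all windows. These matches are descriptions of letters in a window and were not tested. No binding of a factor was measured.

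**Figure D3:**
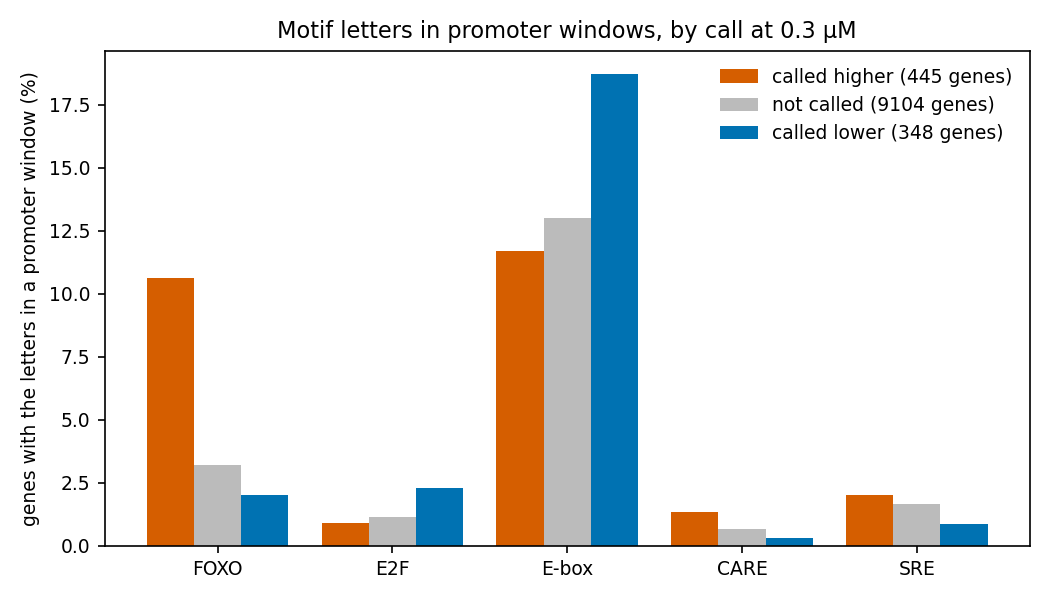
Share of genes with 5 motifs in a promoter window, by call at 0.3 µM. The vertical axis is the percent of genes with the letters on either strand in a window of 250 bases before to 50 after a start; orange bars are 445 genes called higher, grey 9104 not called and blue 348 called lower. The FOXO letters stand in 10.6% of genes called higher and 2.01% of genes called lower, and the E-box in 11.7% and 18.7%.

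Over all genes tested 4.57% rose and 3.35% fell, and the counts of each list below are to be read beside these shares. Among the FOXO targets and feedback genes of PI3K, 12 of 29 rose and none fell, with a median log2 change of 0.45 against -0.00026 over all genes. FOXO1 and FOXO3, the FOXO genes the study names, rose themselves. Other probe sets moved by 0.195 to 0.676 for FOXO3 and by 1.11 for FOXO1. FOXO3 gave 4029, 2753, 1456 and 3011 at 0 µM and 5861, 3955, 3081 and 5978 at 0.3 µM (0.78 ± 0.15, adjusted p = 0.0159), and FOXO1 gave 329, 210, 29.9 and 737 at 0 µM and 602, 262, 72.4 and 1209 at 0.3 µM (0.80 ± 0.21, adjusted p = 0.0397). BCL6, a transcriptional repressor, was the clearest of the group at 384, 551, 305 and 644 at 0 µM and 1262, 834, 934 and 1443 at 0.3 µM. Its groups did not overlap, and the change of 1.27 ± 0.18 (adjusted p = 0.00795) was also called when SYO-1, Yamato-SS or Fuji was left out. Without Aska-SS it was not called (adjusted p = 0.0774). CDKN1B, the CDK inhibitor p27, gave 3780, 3828, 1730 and 4264 at 0 µM and 5457, 4729, 2363 and 6090 at 0.3 µM (0.45 ± 0.09, adjusted p = 0.0157). RICTOR, the defining subunit of mTOR complex 2, rose by 0.54 ± 0.12 (adjusted p = 0.0226), and CCNG2, an unusual cyclin found in resting cells, by 0.81 ± 0.23 (adjusted p = 0.0497). ID1 (0.60), ATG14 (0.41) and GADD45B (0.39) rose as well. The receptor INSR, a classical feedback gene of FOXO, had a change of 1.26 ± 0.41 but did not pass (adjusted p = 0.0774), with 412, 532, 12.1 and 436 at 0 µM and 491, 803, 111 and 866 at 0.3 µM and Yamato-SS again at the floor without drug. IRS2 (0.46 ± 0.31), PIK3IP1 (0.64 ± 0.26) and IGF1R (0.66 ± 0.38) did not pass either.

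Of 29 genes of PI3K, Akt and mTOR, 1 rose (RICTOR) and 2 fell, with a median of -0.03. Counts this small are not far from the shares over all genes, 4.57% higher and 3.35% lower. EIF4EBP1, the translation repressor that mTOR complex 1 phosphorylates, gave 2052, 4949, 3319 and 2348 at 0 µM and 1237, 3847, 2864 and 1172 at 0.3 µM (-0.58 ± 0.15, adjusted p = 0.0351), and EIF4E, the cap-binding factor it holds, gave 3887, 4179, 4288 and 4443 at 0 µM and 2793, 3637, 3627 and 2782 at 0.3 µM (-0.40 ± 0.11, adjusted p = 0.0497). The second of these showed no overlap between the doses. PIK3CB, a catalytic subunit, had -0.01 ± 0.13 and PIK3R1, the main regulatory subunit, -0.05 ± 0.11. Of 19 receptors and adaptors upstream of PI3K, PDGFRA rose and FGFR4, a receptor for fibroblast growth factors, fell by 0.66 ± 0.17 (adjusted p = 0.0386). Of 17 feedback genes of the ERK pathway 2 fell, EPHA2 (-0.74 ± 0.15, adjusted p = 0.0177), a receptor of ephrins, and ETV4 (-0.45 ± 0.11, adjusted p = 0.033), an ETS transcription factor, while DUSP6 and SPRY4, inhibitors of ERK signalling, had 0.03 ± 0.13 and -0.15 ± 0.18.

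Of 9 alpha-arrestin and YPEL genes 4 rose and none fell, and each of the 4 lines had a positive median, from 0.31 in SYO-1 to 1.13 in Yamato-SS. Besides TXNIP, these were YPEL1, YPEL2 and YPEL5, small conserved zinc-binding proteins of largely unknown function. YPEL1 gave 59.3, 80.4, 37.1 and 61.9 at 0 µM and 132, 122, 97.4 and 114 at 0.3 µM with no overlap (1.01 ± 0.23, adjusted p = 0.0253), although its other probe sets ranged from -0.12 to 1.32. As a gene dim without drug, YPEL1 could pass the filter through its treated arrays, which limits its adjusted p and its lack of overlap. YPEL2 gave 552, 217, 94.9 and 317 at 0 µM and 1048, 278, 208 and 944 at 0.3 µM (0.997 ± 0.19, adjusted p = 0.0154) and YPEL5 3550, 1636, 542 and 2689 at 0 µM and 5225, 2408, 1221 and 4344 at 0.3 µM (1.68-fold, adjusted p = 0.0223). YPEL3 had a change of 1.23 ± 0.44 and did not pass, with SYO-1 at -0.41 and the other lines at 0.81 to 2.41. Among 35 lysosome and autophagy genes 5 rose and none fell, at a median of 0.09. They were CTSF, NBR1 (0.75 ± 0.14, adjusted p = 0.0141), an autophagy receptor, HEXA (0.48 ± 0.11, adjusted p = 0.0279), a lysosomal hexosaminidase, ATG14, a subunit of the autophagy-starting lipid kinase, and GABARAP (0.26 ± 0.07, adjusted p = 0.0444), a protein of the autophagosome membrane. Other probe sets of HEXA ranged from 0.06 to 0.53.

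In the BCL-2 family, which sets the threshold of mitochondrial apoptosis, 2 of 14 genes rose and 1 fell, with a median of 0.01. BMF, a pro-apoptotic member that acts by its BH3 domain, rose most, at 26, 33.7, 21.6 and 104 at 0 µM and 90.9, 58.9, 137 and 236 at 0.3 µM (1.61 ± 0.33, adjusted p = 0.0185). Its untreated signals were dim in the lines other than Fuji, and with log2(value + 16) the change was 1.26. BCL2L11, which encodes BIM, gave 565, 858, 263 and 790 at 0 µM and 737, 1100, 471 and 1221 at 0.3 µM. It was higher in each line, with overlap between the groups, and its change of 0.55 ± 0.15 (adjusted p = 0.0449) lay close to the threshold, while its 6 other probe sets ranged from -0.55 to 0.59. BBC3, which encodes PUMA, gave 210, 261, 171 and 219 at 0 µM and 242, 291, 169 and 380 at 0.3 µM. Its change of 0.28 ± 0.17 did not pass (adjusted p = 0.318). The signal was level in Yamato-SS and differed most in Fuji. PMAIP1 was the member that fell. BAK1, one of the pore-forming members, had lower signals with drug in each line and no overlap, at 787, 558, 695 and 676 at 0 µM and 481, 435, 493 and 489 at 0.3 µM, but did not pass (-0.51 ± 0.16, adjusted p = 0.0696). The remaining named members did not pass, with -0.05 ± 0.13 for BAX, -0.24 ± 0.17 for BID, -0.14 ± 0.14 for BAD, 0.07 ± 0.15 for BOK and 0.27 ± 0.44 for HRK on the pro-apoptotic side, and 0.20 ± 0.19 for BCL2, -0.30 ± 0.15 for BCL2L1 and 0.09 ± 0.07 for MCL1 on the protective side. Of 22 caspases, apoptosome and inhibitor genes 1 rose, BIRC2 (0.27 ± 0.06, adjusted p = 0.0304), a ubiquitin ligase that restrains cell death, and 1 fell, VDAC1 (-0.30 ± 0.08, adjusted p = 0.0457), a channel of the outer mitochondrial membrane. These counts are near the shares over all genes, 4.57% higher and 3.35% lower. Of 19 p53 targets none rose and 2 fell, PMAIP1 and TIGAR, a phosphatase that limits glycolysis, at 2993, 1644, 1954 and 2628 at 0 µM and 1816, 1095, 1231 and 1233 at 0.3 µM (-0.77 ± 0.10, adjusted p = 0.00678).

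Of 44 genes of DNA replication 14 fell and none rose, with a median of -0.44. Among the origin licensing genes CDC6 fell by 0.90 ± 0.22, ORC1 by 0.76 ± 0.19 and MCM7, a subunit of the replicative helicase, by 0.60 ± 0.16. GINS4 and GINS1, of the complex that activates this helicase, fell by 0.99 ± 0.24 and 0.73 ± 0.15. PCNA, the sliding clamp, had the smallest adjusted p of the group, 0.0116, at 11200, 15850, 16590 and 11500 at 0 µM and 7460, 13030, 13650 and 7314 at 0.3 µM (-0.45 ± 0.08). RFC2, a subunit of the clamp loader, fell by 0.63 ± 0.14 (adjusted p = 0.0218). Of 26 genes of G1 phase, E2F and CDK inhibitors, CDKN1B rose and 8 fell, at a median of -0.37. Beside CDC25A and MYBL2, CCND3, a D-type cyclin, gave 1834, 1829, 1735 and 1830 at 0 µM and 1308, 1209, 1452 and 844 at 0.3 µM without overlap (-0.61 ± 0.13, adjusted p = 0.0197), and CCNE1, the cyclin of S phase entry, gave 763, 668, 990 and 1151 at 0 µM and 478, 470, 722 and 619 at 0.3 µM (-0.63 ± 0.13, adjusted p = 0.0183). CDK2, SKP2, TFDP1 and E2F3 fell by 0.52, 0.37, 0.34 and 0.34. Of 23 genes of the DNA damage response 4 fell, among them FANCI (-0.68 ± 0.17), a Fanconi anaemia protein, and CHEK1 (-0.61 ± 0.17), the replication checkpoint kinase, 1 of whose other probe sets moved by 1.16.

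Of 47 mitosis genes only CCNB1 (-0.73 ± 0.19, adjusted p = 0.0359), the mitotic cyclin, and CENPN (-0.65 ± 0.15, adjusted p = 0.028), a centromere protein, fell, although the list had the lowest median of all lists, -0.55. That count was near the share of all genes that fell, 3.35%. The lines differed here. The median of the 47 genes was -1.58 in Fuji, -0.39 in Aska-SS, -0.17 in SYO-1 and -0.08 in Yamato-SS, and AURKA, a mitotic kinase, moved by -1.95 in Fuji and by -0.20 in Yamato-SS. The same order of Fuji and Aska-SS before SYO-1 and Yamato-SS held for the medians of DNA replication (-0.88, -0.59, -0.16 and -0.13). In bulk RNA, fewer cells in the dividing phases and less RNA of these genes per cell cannot be told apart. The log2 ratio of the 3′ to the 5′ actin control probe sets, a sign of RNA quality, rose between 0 and 0.3 µM by 0.22 in Fuji, 0.11 in Aska-SS, 0.06 in SYO-1 and 0.03 in Yamato-SS. The same ratio of the GAPDH control moved in another order, by 0.007 in Fuji, -0.08 in Aska-SS, 0.08 in SYO-1 and 0.14 in Yamato-SS. The part of RNA quality in the differences between lines was not tested.

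**Figure D4:**
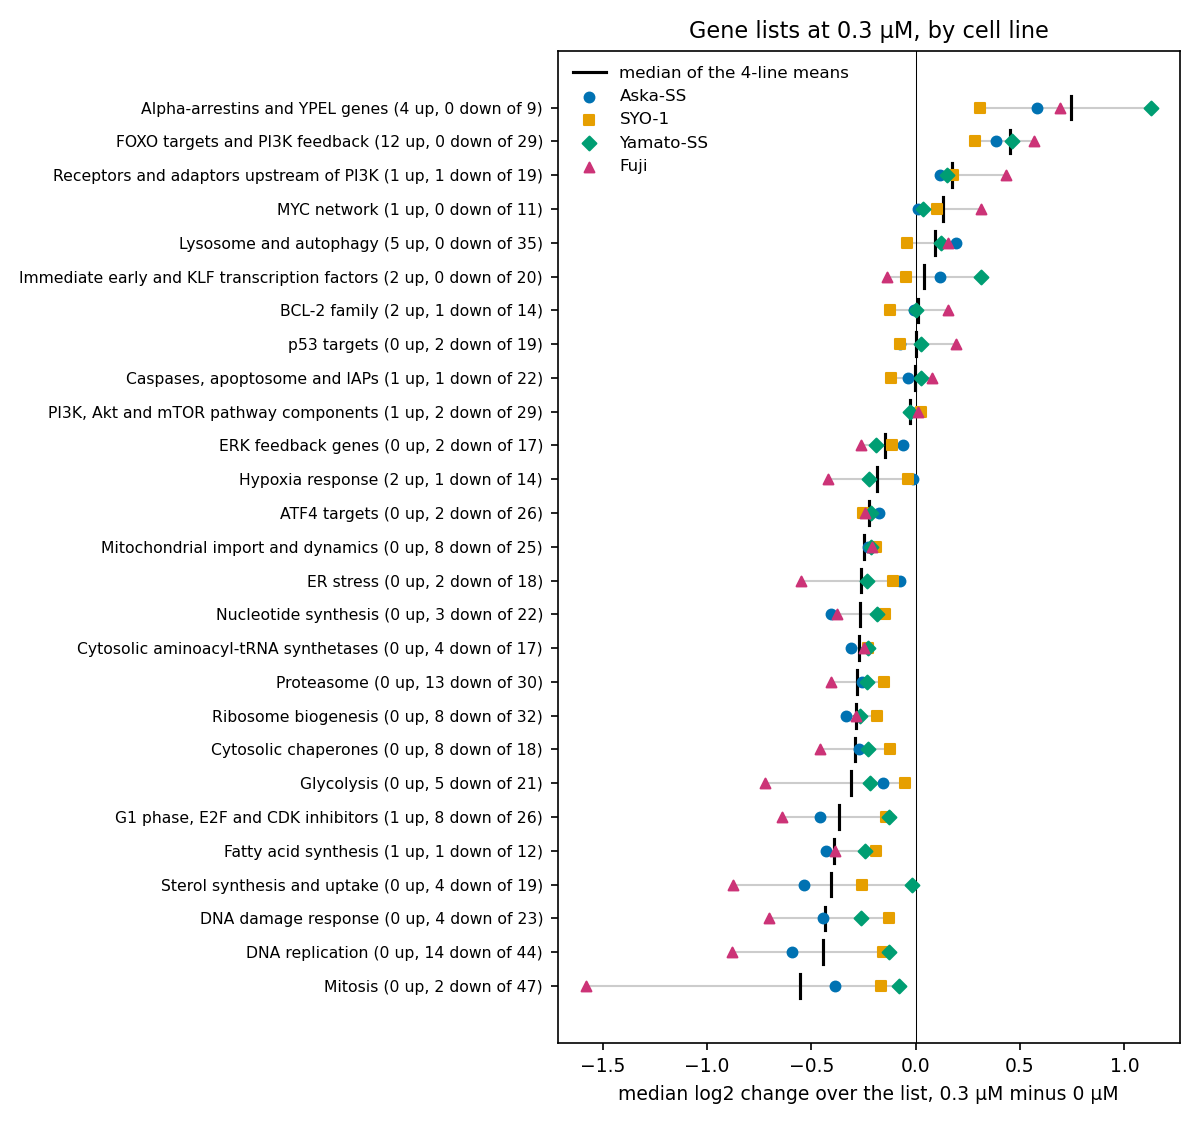
Median log2 change of each gene list from 0 to 0.3 µM, one row per list with its numbers of genes called higher and lower. Coloured symbols are the 4 cell lines and the black tick is the median of the list's changes averaged over the lines. Mitosis spreads from -1.58 in Fuji to -0.08 in Yamato-SS, whereas mitochondrial import spreads from -0.23 to -0.19.

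Of 30 proteasome genes 13 fell and none rose, with a median of -0.28. PSME3, an activator cap of the proteasome, gave 1600, 1855, 1476 and 1767 at 0 µM and 900, 1192, 838 and 814 at 0.3 µM without overlap (-0.85 ± 0.13, adjusted p = 0.00849). PSMD14 (-0.43 ± 0.07), PSMD12 (-0.55 ± 0.09) and PSMA3 (-0.38 ± 0.08), subunits of the lid and the core, did not overlap either, with PSMD12 at 3739, 3132, 4023 and 3934 at 0 µM and 2257, 2355, 2943 and 2584 at 0.3 µM. The other probe set of PSMA3 moved by -0.03. Of 18 cytosolic chaperones 8 fell at a median of -0.29, led by HSPH1 (-0.41 ± 0.07, adjusted p = 0.0104), and of 25 genes of mitochondrial import and dynamics 8 fell at a median of -0.25. TOMM40, the channel of the outer membrane, gave 1751, 2393, 2351 and 1675 at 0 µM and 898, 1756, 1508 and 842 at 0.3 µM (-0.76 ± 0.12, adjusted p = 0.0104), and HSPE1, the co-chaperonin of the matrix, gave 13160, 13520, 12700 and 13600 at 0 µM and 8398, 10450, 9298 and 8433 at 0.3 µM without overlap (-0.54 ± 0.09, adjusted p = 0.0114). Unlike mitosis, this list had nearly the same median in every line, -0.19 to -0.23.

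Biosynthesis genes fell in part. Of 32 ribosome biogenesis genes 8 fell at a median of -0.29, with LYAR, a nucleolar protein, at -0.65 ± 0.11 (adjusted p = 0.0116) and PNO1, a factor of small subunit assembly, at 3044, 3118, 3163 and 2871 at 0 µM and 1828, 2541, 2130 and 1897 at 0.3 µM, which did not overlap (-0.55 ± 0.12, adjusted p = 0.0238). Of 19 sterol genes 4 fell at a median of -0.41. INSIG1, the sterol sensor's anchor, gave 4173, 7109, 10090 and 5712 at 0 µM and 2020, 4152, 7885 and 2593 at 0.3 µM (-0.83 ± 0.16, adjusted p = 0.0149), and DHCR7, which completes the synthesis of cholesterol, fell by 0.83 ± 0.21 (adjusted p = 0.0383). EBP and ACAT2 fell by 0.71 and 0.73. The sterol median was -0.88 in Fuji and -0.02 in Yamato-SS. FASN, fatty acid synthase, fell by 0.62 ± 0.15 (adjusted p = 0.0282) and ACACB, the mitochondrial acetyl-CoA carboxylase that restrains fat oxidation, rose by 0.59 ± 0.14 (adjusted p = 0.0267), the sole calls among 12 fatty acid genes (median -0.39). Other probe sets of ACACB ranged from 0.12 to 0.88. Of 21 glycolysis genes 5 fell at a median of -0.31. HK2, the first enzyme of the pathway, gave 1660, 1002, 1050 and 2564 at 0 µM and 957, 652, 811 and 894 at 0.3 µM without overlap (-0.83 ± 0.22, adjusted p = 0.0432), and ALDOA, ENO1, PGAM1 and TPI1 fell by 0.31 to 0.49. Other probe sets of HK2 ranged from -0.53 to -0.13. Of 17 aminoacyl-tRNA synthetases 4 fell, YARS1 most clearly (-0.48 ± 0.09, adjusted p = 0.0161), and of 22 nucleotide synthesis genes 3 fell, DCTPP1 (-0.38), TYMS (-0.44) and GMPS (-0.32). SLC7A5 and SLC3A2 were the only calls among 26 targets of ATF4 (median -0.22).

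In the other lists few genes were called, and over all genes 4.57% rose and 3.35% fell. Of 11 genes of the MYC network MXI1 rose, and MYC had 0.26 ± 0.12 (adjusted p = 0.18). Of 20 immediate early and KLF factors BCL6 and ZFP36L1 (0.40 ± 0.09, adjusted p = 0.0281), an RNA-binding protein that promotes mRNA decay, rose. The other probe set of ZFP36L1 moved by only 0.04. Of 14 hypoxia genes NDRG1 (0.60 ± 0.14, adjusted p = 0.0281) and BNIP3L (0.36 ± 0.10, adjusted p = 0.0437), a receptor for mitochondrial autophagy, rose and ERO1A (-0.59 ± 0.12, adjusted p = 0.0162), an oxidase of the endoplasmic reticulum, fell. Of 18 genes of endoplasmic reticulum stress DNAJB11 fell by 0.59 ± 0.13 (adjusted p = 0.0228) without overlap, and SEC61B by 0.26 ± 0.07 (adjusted p = 0.0353), although its other probe set moved by 0.29. Of 17 synovial sarcoma markers CD99 rose by 0.26 ± 0.07 (adjusted p = 0.0492), and TLE1 had 0.28 ± 0.10 (adjusted p = 0.0969). None of the 4 epithelial, 1 leukocyte and 2 endothelial markers tested was called.

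At 3 µM, measured against the same untreated arrays, the called genes lay further from the untreated level in the median. The median change at 3 µM was 0.88 for the genes that rose at 0.3 µM and -0.90 for those that fell. As both comparisons share their control arrays, the doses were set side by side and not tested. N4BP2L1 went from 2.03 at 0.3 µM to 4.12 at 3 µM, and CDC25A from -1.16 to -3.88. CLIP3 was at 2.14 and 2.63, BMF at 1.61 and 1.95, and GTF2IP20 at 2.07 and 2.39. MICA was at -0.75 and -0.55, ORC1 at -0.76 and -0.75, ERO1A at -0.59 and -0.47 and GMPS at -0.32 and -0.19. CHRM4 stood out with -1.21 at 0.3 µM and -0.29 at 3 µM, its signals at 3 µM being 92, 125, 48.9 and 116.

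**Figure D5:**
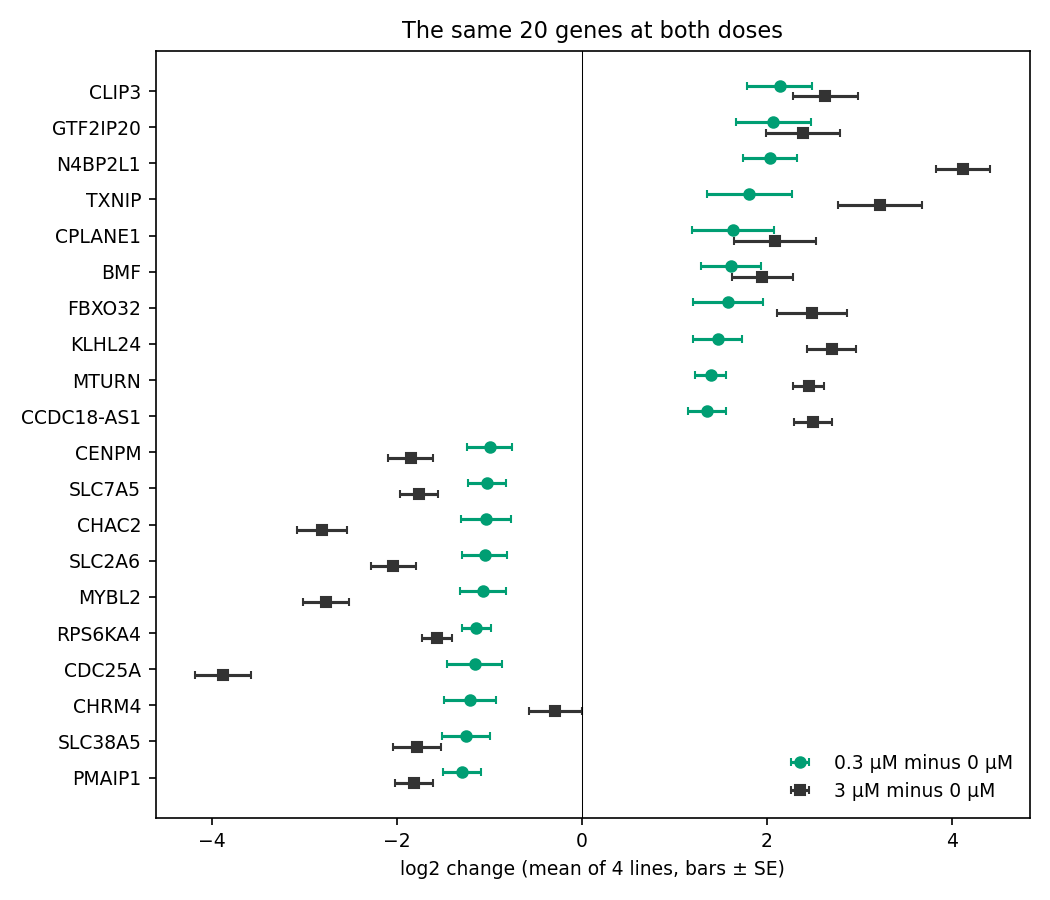
The 10 largest rises and 10 largest falls of the 0.3 µM comparison at both doses, one row per gene. The horizontal axis is the log2 change from 0 µM averaged over 4 lines; green circles are 0.3 µM, dark squares are 3 µM and bars are ± SE. CDC25A moves from -1.16 to -3.88, while CHRM4 lies at -1.21 and -0.29.

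The lines differed in how far their genes moved at 0.3 µM. The standard deviation of the log2 change over all 12133 genes was 0.39 in SYO-1, 0.43 in Aska-SS, 0.45 in Yamato-SS and 0.58 in Fuji. Fuji had the largest change for 338 of the 554 genes that rose and 262 of the 407 that fell, against 24 and 15 for SYO-1. Across genes the changes of any pair of lines correlated with r from 0.172 (SYO-1 with Yamato-SS) to 0.44 (Aska-SS with Fuji), a description over 12133 genes, which are not independent. The lines with SS18-SSX1 and those with SS18-SSX2, 2 lines each, were compared for their change at 0.3 µM by an interaction term in limma. For 0 of 12133 genes (0%) did the change differ at an adjusted p under 0.05. The smallest adjusted p was 0.359, and 248 genes had an unadjusted p under 0.05.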

How the data were processed

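RNA of the 4 cell lines at 3 doses was measured on 12 arrays. The deposited values are linear MAS5 signal intensities (version not given in the sources used here), which the authors scaled to a 2% trimmed mean of 500.1 per array. The methods name quantile normalization in GeneSpring, but the deposited columns differed in distribution, so they were quantile normalized here. The columns left out for want of a sample numbered 0. A floor was set at the 20th percentile of all normalized intensities (12.1), the normalized intensities were taken to log2, and the 62 control probe sets were left out. Of 54675 probe sets, 41097 were annotated with 1 gene symbol, 1801 with several and 11777 with none here. Probe sets whose mean over all 12 arrays, treated ones included, lay above the median were kept. The brightest with 1 symbol stood for each gene (12133 genes). Genes dim without drug, such as BMF, GTF2IP20, CPLANE1, N4BP2L1, COLEC11, FBXO32 and YPEL1, could thus enter the test through their treated arrays. BBC3 was the exception, as its only probe set also names 2 microRNA genes. A RefSeq table of GRCh38.p14 served for names (0 symbols updated), and RefSeq promoters of that build for sequences.

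The fit was limma 3.58.1 in R 4.3.3 over all 12 arrays, with cell line as a block, dose as a factor and a variance trend, with Benjamini-Hochberg adjustment over all genes and a threshold of 0.05. The arrays were paired by the cell line named in the labels. After subtraction of the dose mean, 2 arrays of a line correlated at r = 0.875 to 0.931 and arrays of different lines at -0.458 to -0.101. The subtraction itself pushes the values between lines below 0, so their sign does not test the pairing. The precision is limited by 4 arrays per dose. The p-values measure the spread between single cultures of 4 lines, which leaves out that between repeat cultures. The scripts were tested on simulated data.

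Genes named are the 10 largest rises and falls among called genes that moved one way in 4 of 4 lines, the 4 genes of lowest adjusted p in each list, up to 10 genes still called when SYO-1, Yamato-SS or Fuji was left out, and the BCL-2 and FOXO genes the study names. Any other gene was chosen after its values were seen. The comparison, the lists and this rule were chosen with earlier results of these data known. Alternatives concerned normalization, floor, filter, probe sets, block, arrays, variance model and each line left out. Some items are not reported here.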

Additional observations from a re-analysis of the deposited data

Results flagged for a closer look

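Among 160 named genes, the change in 1 of the 4 lines stood apart from the other 3 for 9 genes, by more than Dixon's test allows at the 95% level. Chance flags about 1 in 20 such groups. In 3 genes the odd line went against the others or moved alone. MYCN, a MYC family factor, changed by 1.15 in Fuji and by -0.04 to 0.03 in the other lines. BID, a pro-apoptotic BCL-2 member, changed by -0.827 in Yamato-SS and by -0.12 to 0.02 elsewhere, and SPRED2, an inhibitor of ERK signalling, by -0.0951 in Yamato-SS against 0.27 to 0.30. In the other 6 genes all lines moved one way. The odd line moved least for EIF4B (0.409 in SYO-1, 0.67 to 0.69 elsewhere), ACSL4 (-0.196 in Fuji, -0.48 to -0.46 elsewhere), GARS1 (-0.227 in Yamato-SS, -0.33 to -0.32 elsewhere), RRP12 (-0.277 in SYO-1, -0.71 to -0.64 elsewhere) and SEC61B (-0.138 in Aska-SS, -0.31 to -0.29 elsewhere). It moved most for MXI1 (0.688 in Yamato-SS, 0.35 to 0.38 elsewhere).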

How the results depend on the processing

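The number of calls was the least stable result. Leaving out 1 line gave 1 to 352 calls (1 to 213 higher, 0 to 141 lower), with 1 call without Aska-SS, against 961. Fitting the 8 arrays of both doses alone gave 1371 (650 lower, 899 shared), and its repeats with 1 line left out, added after the data were seen, gave 0 to 729 (0 to 378 higher, 0 to 353 lower). Without a filter on dim probe sets 99 genes were called (58 higher, 41 lower), without a variance trend 143 (98 higher, 45 lower), with array weights 2017 (1061 higher, 956 lower) and with probe sets averaged per gene 325 higher. At an adjusted p under 0.10, also added later, 1949 passed. With no replicate block limma called 0 genes, with 319 at an unadjusted p under 0.05, since the pairing by line then goes unused. Skipping quantile normalization (1191 calls, median of all genes shifted by 0.039), log2(value + 16), another floor, a filter at the 65th percentile and robust variances left both directions within 1.5 times. Of the 160 named genes, 115 were weaker without Aska-SS, 89 without Fuji, 95 without the filter and 81 without a variance trend. With probe sets averaged 31 were weaker and 2 stronger, and with array weights 23 were stronger. The sign turned for few of the 160, none of them called except SEC61B, which gave 0.017 with its probe sets averaged. In that setting BCL2 gave -0.0536 and MCL1 -0.14. CD79A gave 0.037 without quantile normalization. DSP gave 0.19 with the higher floor. With 1 line left out the changes ran from -0.39 to 0.10 for CD79A, -0.43 to 0.26 for DSP, -0.0609 to 0.15 for BOK and -0.13 to 0.69 for HRK. The causes were not tested. Leaving out Aska-SS leaves 3 pairs of arrays, and dim signals near the floor limit the changes of N4BP2L1, GTF2IP20, FBXO32, CPLANE1, BMF and SLC38A5.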

Other observations

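Several gene groups outside the lists were looked at after the values were seen, so their counts are descriptions. Over all genes 4.57% rose and 3.35% fell. Of 12 genes grouped here as hosts of small nucleolar RNAs, 6 rose and none fell, with a median log2 change of 0.34. MEG3 is counted in this group, and whether it acts as such a host was not checked. EPB41L4A-AS1 gave 12700, 3080, 853 and 1740 at 0 µM and 24700, 5040, 1690 and 5250 at 0.3 µM, with the lines ordered as in the other results (1.06 ± 0.18, limma adjusted p = 0.0108). SNHG32 (0.69 ± 0.10, adjusted p = 0.00849), ZFAS1 (0.62 ± 0.09, adjusted p = 0.00849) and MEG3 (1.02 ± 0.18, adjusted p = 0.0139) were higher in each line as well, as was FTX, a non-coding RNA that is not in this group (1.02 ± 0.15, adjusted p = 0.00849). The other probe sets of ZFAS1 ranged from -0.15 to 0.70 and those of MEG3 from -0.08 to 0.73. Of 15 translation factor and related genes whose mRNAs carry the 5′ oligopyrimidine tract regulated by mTOR, 6 rose and none fell, at a median of 0.18. Of 53 cytosolic ribosomal protein genes, which carry the same tract, none was called and the median was 0.03. Mitochondrial ribosomal protein genes went the other way, with 14 of 75 lower, none higher and a median of -0.18.

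Of 24 clustered histone genes 4 rose, H2AC6, H2AC25 (0.87 ± 0.12, adjusted p = 0.00807), H2BC5 and H2BC12, and none fell. H2AC25 has another probe set, which moved by -0.38. GRN, a lysosomal growth factor precursor, rose by 0.64 ± 0.09 (adjusted p = 0.0076) with all its probe sets between 0.60 and 0.77. CREBRF, a regulator of the cellular stress response, rose by 1.09 ± 0.20 (adjusted p = 0.014) and COLEC11, a collectin of innate immunity, by 1.32 ± 0.26 (adjusted p = 0.0158), from signals under 30 in each line other than Aska-SS. COLEC11 could thus pass the filter for dim signals through its treated arrays, which limits its adjusted p.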
